A study of Homo sapiens with 4 samples.

Results

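The comparison concerns regions of the human genome at which a STARR-seq library of SHP1705-treated MDA-MB-231 cells and one of DMSO-treated cells could be set side by side. MDA-MB-231 is a mesenchymal, triple-negative breast cancer cell line, and the plasmid library held sheared genomic DNA of the same line. The SHP1705 cells received 10 µM of the compound, which the submitters describe as a stabilizer of cryptochrome (CRY), and the DMSO cells received the solvent. Companion libraries came from cells given both SHP1705 at 10 µM and MG132, a proteasome inhibitor, at 100 nM, or MG132 alone at 100 nM. All cells were transfected with the same plasmid mix in the presence of their drug, and RNA was taken after 8 h. Each treatment had 1 library, so no spread between replicates exists and no test or p-value is given.

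The members were chosen by measured values, namely the positions, widths and summits of the authors' peaks on chromosomes 1 to 22 and X. A shared pair had its summits within 250 bp of each other in both lists, each being the nearest to the other. A peak present in 1 list alone had to be at least 1.5 times as wide as its library's fragment size, with its summit more than 2 bp from the middle of the peak and no overlapping peak in the other list. These rules found 6605 shared pairs, 31138 SHP1705-only peaks and 2826 DMSO-only peaks, or 40569 in all, with 8 SHP1705 and 5 DMSO peaks that meet both rules counted under each, drawn from 85840 SHP1705 peaks and 47822 DMSO peaks. The whole series held 260678 peaks in 4 lists. The shared pairs were 7.69% of the SHP1705 list and 13.8% of the DMSO list. Another 53.7% of the SHP1705 peaks and 76.0% of the DMSO peaks overlapped nothing in the other list but were too narrow, or too symmetric about their summit, to enter. Heights are given in FPM, the number of fragments over the summit per 1000000 fragments in that library. No plasmid input library was analysed here, so a fragment's copies in the plasmid pool and transcripts per plasmid cannot be told apart. A pair is called higher where SHP1705 was at least 2-fold over DMSO, lower where it was at most 0.5 of DMSO, and in between otherwise.

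STARR-seq puts each genomic fragment into the transcribed part of a reporter plasmid, behind a weak promoter. A fragment with enhancer activity drives its own transcription, and the amount of its RNA reports that activity. Cryptochromes are the repressors of the circadian clock. They bind the activator pair CLOCK and BMAL1 at E-boxes and silence its targets, among them the PER, CRY and NR1D genes, until ubiquitin ligases mark the cryptochromes for the proteasome. From its title, the study asked how a cryptochrome stabilizer and a proteasome inhibitor change the activity of regulatory elements.

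Peaks that lie on gene starts are the ones for which sequence can be shown. RefSeq promoter windows of GRCh38.p14, which run from 250 bases before to 50 after a gene start, numbered 34961 for 27195 genes. An SHP1705-only summit fell in 383 windows of 362 genes, a DMSO-only summit in 7 windows of 6 genes, and a shared pair in 17 windows of 14 genes, of which 10 windows held a pair higher in SHP1705 and 6 a lower one. The windows below were picked to span these classes. RAB24, a small GTPase of autophagy, held an SHP1705-only peak of 16.8 FPM and is one of the windows with an E-box. CUL1, the scaffold of the F-box ligases that mark clock proteins, held an SHP1705-only peak of 0.963 FPM. COL4A1 encodes a basement membrane collagen and shares its start region with COL4A2. Its window held the summit of an SHP1705-only peak of 38.6 FPM, which was counted within COL4A2 and not within COL4A1. CIB1, a calcium and integrin binding protein, held an SHP1705-only peak of 25.5 FPM. PCBP1-AS1, a noncoding gene opposite the RNA-binding protein gene PCBP1, held a shared pair with 132 FPM in SHP1705 and 4.04 in DMSO. COA6, an assembly factor of cytochrome oxidase, held a shared pair with 1.04 FPM in SHP1705 and 8.45 in DMSO. RCE1, a protease of prenylated proteins, held a DMSO-only peak of 19.1 FPM. Each is printed on the strand of its gene, and capitals mark matches on either strand to the E-box CACGTG, the cyclic AMP response element TGACGTCA, the ETS site CCGGAA and the GC box GGGCGG. Matches to the related E-prime box CACGTT, the D-box TTATGNAA and the AP-1 site TGANTCA would be capitals too, and these 7 windows hold none of them.
RAB24, chr5:177303670-177303969, minus strand: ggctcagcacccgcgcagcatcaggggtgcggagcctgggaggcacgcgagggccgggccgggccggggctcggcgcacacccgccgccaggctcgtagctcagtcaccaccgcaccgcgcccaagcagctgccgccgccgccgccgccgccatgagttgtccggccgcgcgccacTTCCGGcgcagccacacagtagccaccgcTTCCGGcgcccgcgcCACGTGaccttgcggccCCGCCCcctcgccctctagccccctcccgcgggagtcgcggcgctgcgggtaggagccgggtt
CUL1, chr7:148698395-148698694, plus strand: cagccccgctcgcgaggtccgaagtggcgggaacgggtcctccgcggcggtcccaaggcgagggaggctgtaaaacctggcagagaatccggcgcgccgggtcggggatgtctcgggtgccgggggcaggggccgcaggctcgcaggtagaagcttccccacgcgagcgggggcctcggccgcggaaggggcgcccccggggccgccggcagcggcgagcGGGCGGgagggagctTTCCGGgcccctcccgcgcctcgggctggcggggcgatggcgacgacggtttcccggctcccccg
COL4A1, chr13:110307108-110307407, minus strand: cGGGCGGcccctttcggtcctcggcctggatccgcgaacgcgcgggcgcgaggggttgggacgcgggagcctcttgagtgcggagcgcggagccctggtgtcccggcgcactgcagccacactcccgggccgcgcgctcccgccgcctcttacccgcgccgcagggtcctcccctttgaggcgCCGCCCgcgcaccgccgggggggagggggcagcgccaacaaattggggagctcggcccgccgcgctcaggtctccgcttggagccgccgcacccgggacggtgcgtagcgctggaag
CIB1, chr15:90265710-90266009, minus strand: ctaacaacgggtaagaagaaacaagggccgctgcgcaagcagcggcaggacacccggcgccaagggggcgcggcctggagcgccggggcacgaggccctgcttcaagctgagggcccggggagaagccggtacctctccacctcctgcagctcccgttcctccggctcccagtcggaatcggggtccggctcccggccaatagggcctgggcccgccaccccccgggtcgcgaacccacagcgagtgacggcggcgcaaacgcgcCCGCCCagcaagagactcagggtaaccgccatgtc
PCBP1-AS1, chr2:70088159-70088458, minus strand: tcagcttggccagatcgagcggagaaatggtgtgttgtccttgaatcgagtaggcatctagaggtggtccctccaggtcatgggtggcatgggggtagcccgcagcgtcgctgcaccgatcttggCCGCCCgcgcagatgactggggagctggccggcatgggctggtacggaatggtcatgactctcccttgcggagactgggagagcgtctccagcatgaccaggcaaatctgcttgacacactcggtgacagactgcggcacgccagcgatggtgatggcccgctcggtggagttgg
COA6, chr1:234373433-234373732, plus strand: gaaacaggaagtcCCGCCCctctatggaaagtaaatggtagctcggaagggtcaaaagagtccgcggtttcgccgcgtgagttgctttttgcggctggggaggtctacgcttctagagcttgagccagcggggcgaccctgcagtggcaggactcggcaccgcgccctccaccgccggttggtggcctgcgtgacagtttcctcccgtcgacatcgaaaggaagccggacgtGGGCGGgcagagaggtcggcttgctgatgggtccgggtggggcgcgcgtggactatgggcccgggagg
RCE1, chr11:66843191-66843490, plus strand: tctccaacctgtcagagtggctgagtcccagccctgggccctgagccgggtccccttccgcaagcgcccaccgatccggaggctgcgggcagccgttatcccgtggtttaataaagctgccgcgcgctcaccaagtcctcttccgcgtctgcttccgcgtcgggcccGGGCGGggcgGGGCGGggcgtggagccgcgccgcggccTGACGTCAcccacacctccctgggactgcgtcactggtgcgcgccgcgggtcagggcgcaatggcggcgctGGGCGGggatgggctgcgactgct

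Only the RAB24 window among these holds an E-box and only the RCE1 window a cyclic AMP response element, while every one of the 7 holds a GC box. Over all 383 windows with an SHP1705-only summit, 6.79% held an E-box (95% Wilson interval 4.67 to 9.76), against 7.27% of all 34961 windows (7.0 to 7.54). The E-prime box was found in 4.44% of them (2.79 to 6.99), against 5.36% of all windows. The D-box was found in 2.35% (1.24 to 4.41), against 3.31%. Shares above those of all windows were seen for the GC box, at 63.4% (58.5 to 68.1) against 45.0%, and for the ETS site, at 28.7% (24.4 to 33.4) against 17.3%. Shares whose interval lay below the share of all windows were seen for the recognition site of the clock receptors REV-ERB and ROR, AGGTCA, at 9.92% (7.31 to 13.3) against 13.8%, for the TEAD site GGAATG, at 10.4% (7.76 to 13.9) against 14%, for the NF-Y site CCAAT, at 20.4% (16.6 to 24.7) against 34.6%, for the AP-1 site, at 1.57% (0.720 to 3.38) against 7.68%, and for the polyadenylation signal AATAAA, at 8.36% (5.98 to 11.6) against 17.3%. The cyclic AMP response element, at 1.83% (0.888 to 3.72) against 1.85%, completed the 11 motifs searched on both strands. Intervals here and below cover counting error only, and the windows were not matched on base composition. Some windows overlap, so the same bases count more than once and these motif intervals are too narrow. For AGGTCA and GGAATG the upper ends, 13.3 and 13.9, lay close to the shares of all windows, so their lower shares are uncertain. A match is a run of letters and not a shown binding site.

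The libraries differed before any pair was formed. SHP1705 was sequenced to 118324303 fragments, the combination to 28331486, MG132 to 27289266 and DMSO to 29717604, and the lowest peak stood at 0.237, 0.424, 0.440 and 0.437 FPM in that order. The fragment size was 299 bp in SHP1705 and 355, 354 and 346 bp in the combination, MG132 and DMSO. Inside RefSeq genes lay 68.2% of SHP1705 peaks, against 50.4%, 52.2% and 49.4% in the combination, MG132 and DMSO. The part of depth and fragment size in the results that follow was not tested. Since duplicates were kept, fragments are not independent molecules.

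Markers of the line were checked in the peak lists. Within VIM, the mesenchymal intermediate filament vimentin, each of the 4 lists held 2 peaks. SPARC, a matrix protein of mesenchymal cells, held 3 SHP1705 peaks and 1 DMSO peak. CD44, an adhesion receptor of mesenchymal cells, held 5 SHP1705 peaks and 2 DMSO peaks, and AXL, a receptor kinase of the same cell state, held 4 SHP1705 peaks and none in DMSO. MDA-MB-231 is known to lack the chromosome 9 segment with CDKN2A, CDKN2B and MTAP, and the SHP1705 list nevertheless held 5, 3 and 3 peaks in these genes, the tallest at 27.8 FPM in CDKN2B. The combination list held 0, 0 and 1, the MG132 list 0, 1 and 0, and the DMSO list 0, 0 and 1. The line is also known to make little E-cadherin, the product of CDH1. That gene held 7 SHP1705 peaks of up to 41.7 FPM, against 1 DMSO peak of 2.05 FPM. EPCAM, an epithelial adhesion molecule, held 3 SHP1705 peaks and 1 DMSO peak. ESR1, the oestrogen receptor gene, held 6 SHP1705 peaks of up to 2.99 FPM and 4 DMSO peaks of up to 19.1 FPM, with no shared pair. GATA3, a luminal transcription factor, held 2 SHP1705 peaks of up to 0.862 FPM and none in DMSO. The peaks in the deleted segment go against the label, and whether RNA or DNA from other human cells entered the SHP1705 library was not tested. Peaks are not a measure of expression, so the CDH1 peaks alone do not contradict the label. HBB, the beta chain of haemoglobin, held no peak in any list. ALB, which encodes albumin, held 1 DMSO peak and none in SHP1705, and PTPRC, the leukocyte antigen CD45, held 2 SHP1705 peaks and 1 DMSO peak.

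Shared peaks inside genes fell into a tall set and a short set in SHP1705, with few between. Of 2613 such pairs, 1702 (65.1%, interval 63.3 to 66.9) were higher in SHP1705 and 763 (29.2%, 27.5 to 31.0) were lower, leaving 148 in between. The higher pairs had a median of 44.6 FPM in SHP1705 and 1.48 FPM in DMSO, a ratio of 29.7 and a log2 ratio of 4.89. Their log2 ratios were close together, with a middle range (25th to 75th percentile over pairs) from 4.55 to 5.21. The lower pairs had a median of 0.685 FPM in SHP1705 and 9.19 FPM in DMSO, a log2 ratio of -3.58. Because the values form 2 separate groups, the median over all pairs inside genes, 4.52, moves easily with the selection. Among pairs with at least 50 DMSO fragments it was 0.070, with 46.7% of the pairs higher in SHP1705. Shared pairs were not required to have summits away from the peak's middle. Of the 2141 pairs inside genes with both summits more than 2 bp from it, 77.5% were higher and 16.6% lower.

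Outside genes the direction was nearly uniform, but 3403 of the 3992 pairs lay more than 500 kb from any protein-coding gene. Of 3992 pairs, 3842 (96.2%, interval 95.6 to 96.8) were lower in SHP1705 and 21 (0.526%, 0.344 to 0.803) were higher. The median was 1.20 FPM in SHP1705 and 12.4 FPM in DMSO, a log2 ratio of -3.31 with a middle range from -3.95 to -2.66. Over all 6605 shared pairs, 26.1% were higher and 69.7% lower in SHP1705. Heights in FPM are shares of a library, so that a larger share of gene peaks leaves less for the others by construction. Set so that the median pair outside genes is equal in both libraries, a scaling added after the data were seen, 76.2% of the pairs inside genes were higher and 15.4% of those outside were lower.

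**Figure D1:**
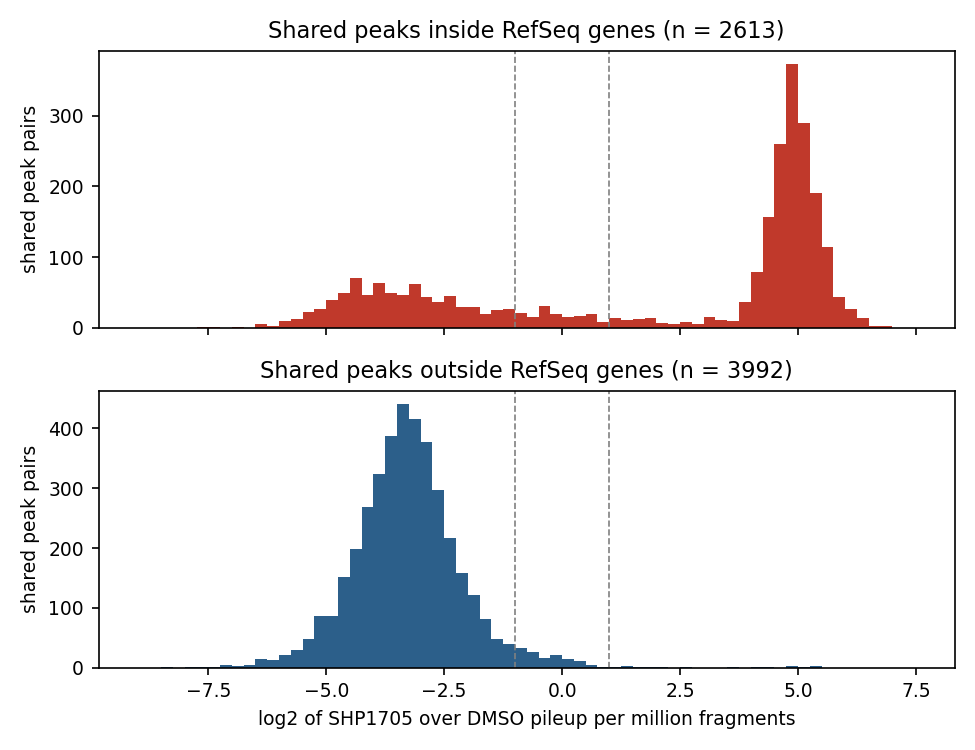
Histograms of the log2 ratio of SHP1705 over DMSO summit pileup in FPM for shared peak pairs inside (upper panel, 2613 pairs) and outside RefSeq genes (lower panel, 3992 pairs), in bins of 0.25, with dashed lines at the 2-fold limits. Pairs inside genes form a group near 4.89 and another near -3.58, and pairs outside genes form 1 group near -3.31.

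The kind of gene went with the direction. Of 647 pairs on pseudogenes, many of which are intronless copies of mRNAs, 88.9% were higher in SHP1705, with a median log2 ratio of 4.78. Alignment can split fragments between a gene and its copies, so heights at single pseudogenes are uncertain. Of 1813 pairs in protein-coding genes away from pseudogenes, 61.6% were higher and 31.5% lower. Of 153 pairs in noncoding genes alone, 6.54% were higher and 90.2% lower, with 0.608 FPM in SHP1705 and 8.41 in DMSO at the median. Outside genes, 3403 of the 3992 pairs lay more than 500 kb from any protein-coding gene, and there 96.9% were lower in SHP1705. Repeat content at these positions was not examined. Heights are uncertain wherever fragments align to several places.

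The part of the gene went with the direction as well. Within 1 kb of the 3′ end of a protein-coding gene lay 516 pairs, of which 92.2% were higher in SHP1705 and 4.26% lower. Between 1 and 5 kb from the 3′ end, 80.3% of 345 pairs were higher, and within 1 kb of the 5′ end 66.7% of 69 pairs. More than 5 kb from both ends the split turned round, with 23.2% of 522 pairs higher and 69.0% lower. These pairs lay in genes whose strand RefSeq's promoter windows give, away from pseudogenes. Positions along the gene were measured with pairs on pseudogenes inside these genes kept, over 1078 higher and 471 lower pairs. From the 5′ end, the median summit of the higher pairs lay at 92.4% of the gene's length, and that of the lower pairs at 55.2%. The last stretch of a gene usually holds its 3′ untranslated exon, but exon positions were not used here.

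**Figure D2:**
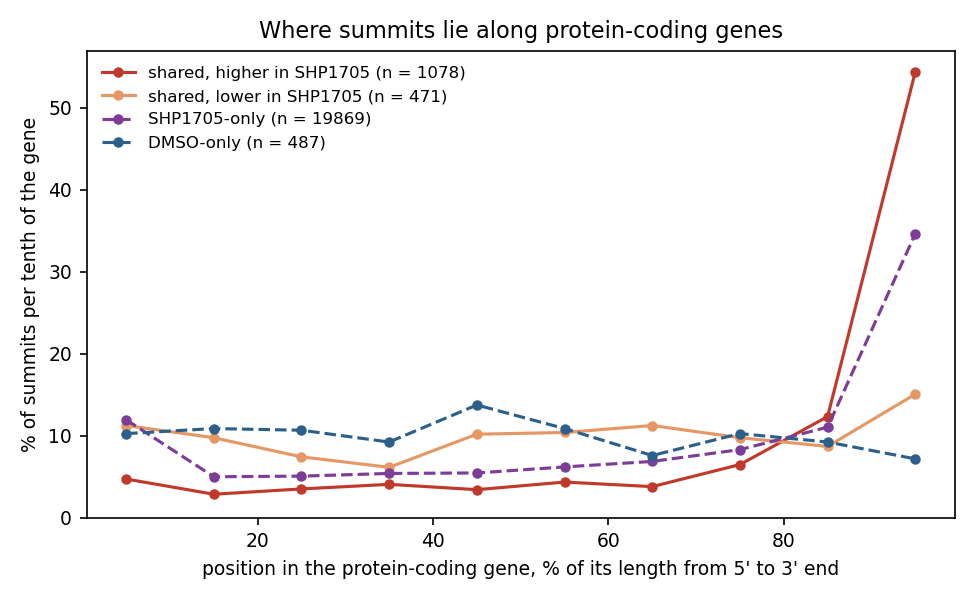
Percent of summits in each successive 10% of the length of protein-coding genes, from the 5′ to the 3′ end, for shared pairs higher (n = 1078) and lower in SHP1705 (n = 471), SHP1705-only peaks (n = 19869) and DMSO-only peaks (n = 487). The final bin holds 54.4% of the higher pairs and 34.6% of the SHP1705-only peaks, against 15.1% of the lower pairs and 7.19% of the DMSO-only peaks.

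Height in DMSO separated the pairs inside genes too. Where fewer than 50 DMSO fragments covered the summit, 95.2% of 993 pairs were higher in SHP1705, and with 50 to 200 fragments 68.5% of 797 pairs were. With 200 to 1000 fragments, 25.5% of 791 pairs were higher and 65.5% lower. No SHP1705 peak stood below 0.237 FPM, and the part of this floor in the split was not tested. Among 123 pairs outside genes with fewer than 50 DMSO fragments, 9.76% were higher and 49.6% lower, with a median log2 ratio of -0.99. At 1000 or more DMSO fragments, 755 of 755 pairs outside genes were lower in SHP1705, with a median log2 ratio of -3.74. By chromosome the median log2 ratio outside genes ran from -3.65 on chromosome 9 to -2.63 on X, so that every chromosome had the same sign. Inside genes it ran from 1.5 on chromosome 7, where 52.2% of 136 pairs were higher, to 4.90 on chromosome 21.

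The highest ratio inside genes among pairs with at least 50 DMSO fragments was at IGFBP4, which encodes an insulin-like growth factor binding protein. The pair at chr17:40443463-40444075 (hg38, DMSO peak) had 207 FPM in SHP1705, 1.06 in the combination, 1.83 in MG132 and 1.85 in DMSO, a log2 ratio of SHP1705 over DMSO of 6.80. SHP1705 stood alone there, and the other 3 libraries lay within 2-fold of each other. MMP2, a gelatinase of the extracellular matrix, had 273 FPM in SHP1705, 1.84 in the combination, 2.86 in MG132 and 3.06 in DMSO at chr16:55479233-55479617, a log2 ratio of 6.48. VIM had 589 FPM in SHP1705, 6.95 in the combination, 9.64 in MG132 and 7.44 in DMSO at chr10:17229288-17229973, a log2 ratio of 6.31. In both genes SHP1705 was again the only high library. The other pairs with the highest ratios lay in COL6A3, a chain of collagen VI (log2 ratio 6.58), PITX1, a homeobox factor of hindlimb development (6.53), IGFBP2, of the IGFBP4 family (6.42), PLAT, tissue plasminogen activator (6.29), and SPON2, a secreted spondin (6.24). SHP1705 heights in these 5 ran from 155 to 880 FPM and DMSO heights from 1.68 to 11.2 FPM. These genes were ranked by the ratio among pairs with at least 50 DMSO fragments, so their sizes are a description of the extremes.

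The lowest ratios inside genes had little signal in SHP1705. In DYNC2I1, TNS3, SDK1, ADAP1 and PLXNA4 the summit lay more than 5 kb from both gene ends. DYNC2I1, a subunit of the dynein that works in cilia, had 0.321 FPM in SHP1705, no combination peak, 14.7 FPM in MG132 and 64.8 in DMSO at chr7:158916531-158917153, a log2 ratio of -7.66. ADAP1, a GTPase-activating protein of neurons, had 1.70 FPM in SHP1705, 75.5 in the combination, 79.6 in MG132 and 145 in DMSO at chr7:905322-906536, a log2 ratio of -6.41. At ADAP1 the combination library sat with MG132 and DMSO although its cells had received SHP1705. TNS3, which links integrins to actin, had a log2 ratio of -6.92, SDK1, a synaptic adhesion molecule, -6.43, and PLXNA4, a semaphorin receptor, -6.26. The unnamed loci LOC124902565, LOC105376654 and LOC105376942 had -7.34, -6.31 and -6.13. Of these 8, DMSO heights ran from 21.3 to 145 FPM and SHP1705 heights from 0.279 to 1.70.

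Outside genes the highest ratios were near PRPH2 (log2 ratio 5.49), SOX14 (5.36), LOC101927345 (5.27), CCDC74A (4.81) and ZNF783 (4.78), each named for the nearest gene that RefSeq lists as protein-coding. The first lay 4860 bp from PRPH2, a photoreceptor membrane protein, with 127 FPM in SHP1705, 1.94 in the combination, 2.42 in MG132 and 2.83 in DMSO. The lowest ratios were near LINC02798 (-8.40), ZNF33B (-7.75), OR4C46 (-7.70), ANKRD30B (-7.26) and GRB14 (-7.06). In that order, the pairs lay 761292, 1308631, 826742, 2151889 and 261896 bp from these genes, so the names only mark positions. The pair at chr10:41265220-41265854, 1308631 bp from the zinc finger gene ZNF33B, had 0.465 FPM in SHP1705, 91.4 in the combination, 148 in MG132 and 100 in DMSO. There SHP1705 was the only low library. Near LINC02798 the combination was low as well, with 0.668 FPM in SHP1705, 0.847 in the combination, 5.94 in MG132 and 226 in DMSO. Near OR4C46, one of the olfactory receptor genes, the heights were 1.25 FPM in SHP1705, 37.6 in the combination, 112 in MG132 and 261 in DMSO. Neither companion library held a peak at the pairs near ANKRD30B and GRB14.

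The companion libraries did not share the SHP1705 heights. Comparisons with DMSO use the same DMSO library, so they are set side by side and not counted as separate evidence. Of the 1702 pairs higher in SHP1705, 1281 (75.3%) also had a combination peak, with a median log2 ratio of combination over DMSO of -0.17 and a middle range from -0.37 to 0.04. An MG132 peak was found at 1367 (80.3%), with a median log2 ratio of MG132 over DMSO of 0.08 and a middle range from -0.11 to 0.28. In both libraries 92.2% of these values were within 2-fold of DMSO. Of the 3842 pairs outside genes lower in SHP1705, 69.5% had a combination peak, with a median log2 ratio over DMSO of -0.02, and 72.7% had an MG132 peak, with 0.10. The 763 pairs inside genes lower in SHP1705 had a combination peak in 12.5% of cases and an MG132 peak in 13.1%. Of those 763, 44.7% had a DMSO summit within 2 bp of the peak's middle, against 1.70% of the 1702 higher pairs and 7.11% of the lower pairs outside genes.

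**Figure D3:**
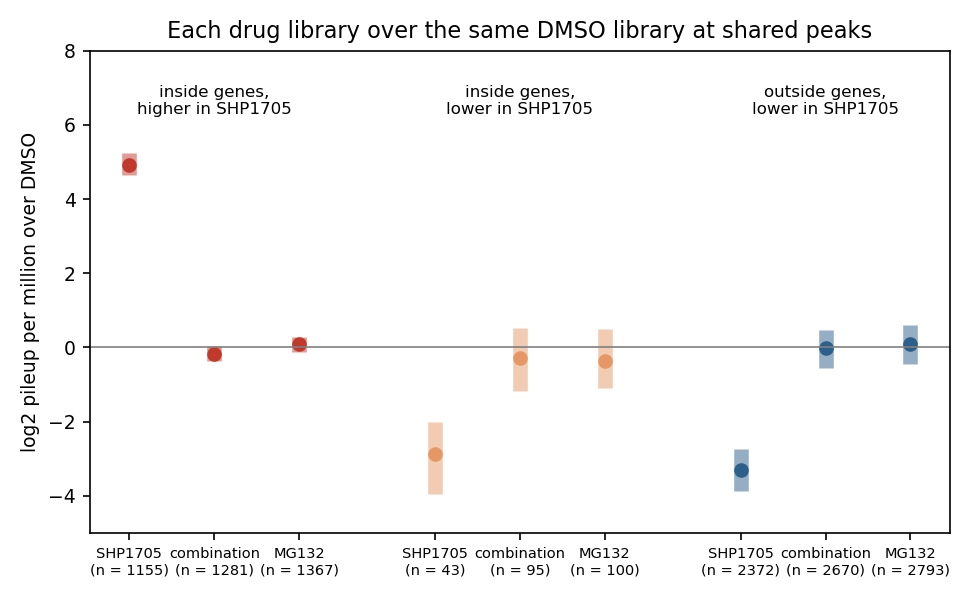
Median (point) and middle range (bar, 25th to 75th percentile over pairs) of the log2 summit pileup in FPM of SHP1705, the combination and MG132 over the same DMSO library, for 3 sets of shared pairs. SHP1705 values are for pairs found in all 4 lists. Inside genes the SHP1705 median was 4.93, against -0.17 for the combination and 0.08 for MG132.

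The clock genes were described from 21 genes of the core loop and 17 of clock protein turnover. In the core loop 1 gene held a shared pair higher in SHP1705 and 1 a lower pair, against 6.52% and 2.92% of all 19970 protein-coding genes. BHLHE40, a repressor that competes at E-boxes, had 23.2 FPM in SHP1705, 0.988 in the combination, 1.14 in MG132 and 1.38 in DMSO, a log2 ratio of 4.07. RORB, a nuclear receptor that activates clock genes, had 1.24 FPM in SHP1705, 24.3 in the combination, no MG132 peak and 9.79 in DMSO, a log2 ratio of -2.98. An SHP1705-only peak lay in 17 of the 21, against 60.6% of all protein-coding genes, and a DMSO-only peak in 2, PER2 at 4.91 and RORA at 6.49 FPM, against 2.77%. The tallest SHP1705-only peaks of the core loop were those of NFIL3, a repressor of D-boxes, at 19 FPM, NR1D1 and NR1D2, the REV-ERB receptors, at 10.6 and 7.73, and TEF, an activator of D-boxes, at 6.16. The cryptochrome genes CRY2 and CRY1 had SHP1705-only peaks of up to 5.70 and 3.85 FPM, and the period genes PER1, PER3 and PER2 of up to 3.46, 1.34 and 1.06. CLOCK reached 3.17 and its relative NPAS2 3.36 FPM, while BMAL1 and CIART held no member of either kind. DMSO peaks that met neither rule also lay in some core-loop genes. They reached 14.4 FPM in NFIL3, 11.1 in PER3, 10.8 in NPAS2 and 3.87 in BMAL1. Of the 21 genes, 12 held no DMSO peak. All these SHP1705-only heights except that of NFIL3 lie under 13.0 FPM. That is 29.7 times the lowest DMSO peak, and 29.7 was the median ratio of the pairs higher in SHP1705 inside genes. At that ratio a DMSO partner would have stood below every DMSO peak. At 22.9, the median ratio of all pairs inside genes, the limit would be lower. Whether such a limit left these peaks without a partner was not tested.

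Among the 17 turnover genes, 4 held a higher pair and 1 a lower one, against 6.52% and 2.92% of protein-coding genes. CSNK1D, CSNK1E and CSNK1A1, the casein kinases that phosphorylate PER and CRY proteins, had log2 ratios of 4.94, 4.88 and 5.79. CSNK1A1 had 74.4 FPM in SHP1705, 5.51 in the combination, 1.32 in MG132 and 1.35 in DMSO. The combination value is that of a peak overlapping the DMSO peak, whose summit need not match. The tallest combination peak counted within CSNK1A1 itself stood at 1.24 FPM. DDB1, an adaptor of CUL4 ligases, had 27.7 FPM in SHP1705, 0.918 in the combination, 0.623 in MG132 and 0.909 in DMSO. USP2, a deubiquitinase of clock proteins, had 0.735 FPM in SHP1705 and 9.02 FPM in DMSO. SHP1705-only peaks lay in 16 of the 17 genes, against 60.6% of protein-coding genes, the tallest in SKP1, which joins F-box proteins to CUL1, at 47.3 FPM. Only 3 of the 17 genes held no DMSO peak of any kind.

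**Figure D4:**
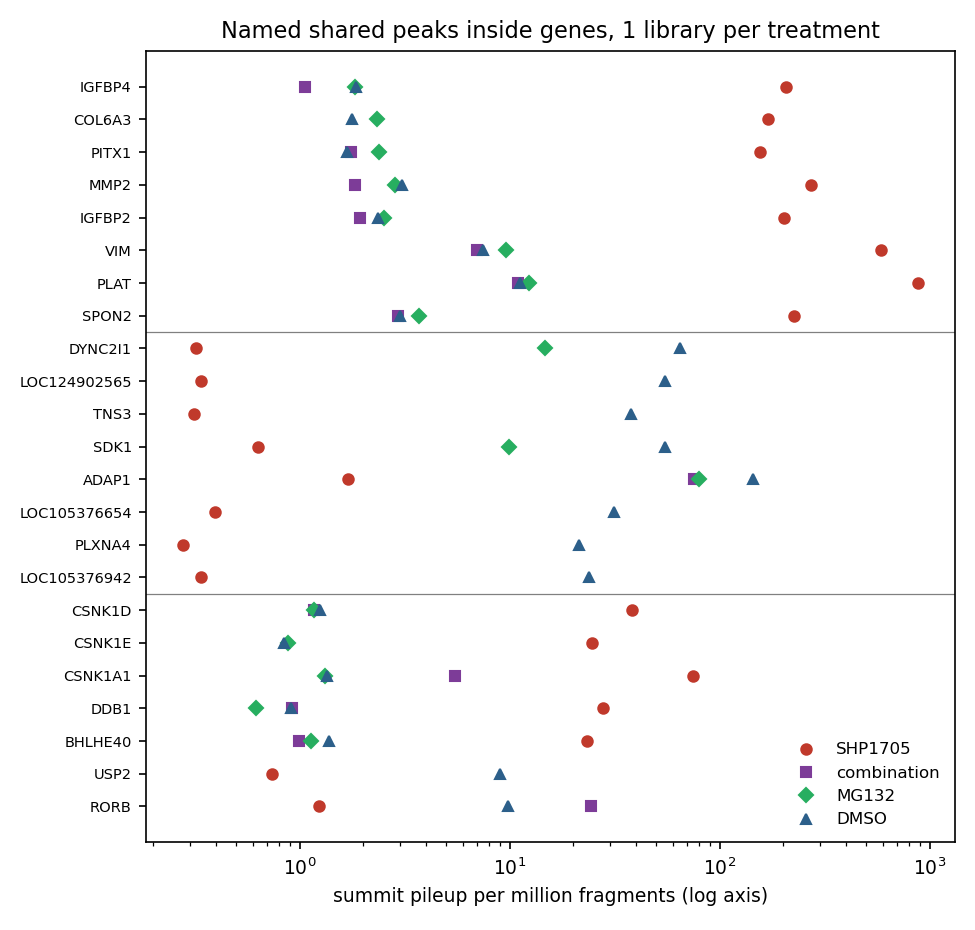
Summit pileup in FPM (log axis) in SHP1705, the combination, MG132 and DMSO, 1 library each, for the 8 highest (top block) and 8 lowest (middle block) pairs inside genes and for 7 clock genes (bottom block). A missing point means no peak in that list. In the top block SHP1705 is the only high library, and in the bottom block it is low at RORB and USP2.

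Lists of abundant transcripts differed in how many members held a higher pair. Of 31 cytoskeletal genes 24 held a higher pair and 1 a lower pair, against 6.52% and 2.92% of protein-coding genes. Beta-actin, ACTB, had 1576 FPM in SHP1705, 53.8 in the combination, 66.5 in MG132 and 60.7 in DMSO, a log2 ratio of 4.70. Of 19 glycolytic genes 11 held a higher pair and none a lower one, with GAPDH at 537 FPM in SHP1705 and 21.3 in DMSO. Of 23 translation factors 10 held a higher pair, with EEF1A1, which brings tRNA to the ribosome, at 455 in SHP1705 and 22.5 in DMSO. Of 79 ribosomal protein genes 6 held a higher pair and 1, RPL24, a lower one, a share near that of all protein-coding genes, and 52 held an SHP1705-only peak, against 60.6% of protein-coding genes. Of 28 chaperones 8 held a higher pair, among them CALR, calreticulin, at 512 FPM in SHP1705, 12.6 in the combination, 14.6 in MG132 and 14.8 in DMSO. The median log2 ratios of the higher pairs in these lists were 4.93, 4.71, 4.84, 4.71 and 5.05, close to the 4.89 of all higher pairs inside genes.

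Of 30 mesenchymal and matrix genes, 14 held a higher pair and none a lower one, against 6.52% and 2.92% of protein-coding genes, with a median log2 ratio of 5.30 over 21 pairs. COL6A2, a chain of collagen VI, had 760 FPM in SHP1705, 13.9 in the combination, 19.5 in MG132 and 16.2 in DMSO. SPARC had 475 FPM in SHP1705, 12.0 in the combination, 14.1 in MG132 and 13.3 in DMSO. In both genes SHP1705 was the only high library. LAMB3, a laminin chain, was within 2-fold, at 4.78 FPM in SHP1705 and 8.55 in DMSO. Of 12 abundant noncoding RNAs, MALAT1 and NEAT1, which are retained in the nucleus, held a higher pair, with MALAT1 at 983 FPM in SHP1705 and 42.5 in DMSO. The share over all noncoding genes was not counted. Of the 153 pairs in noncoding genes alone, 6.54% were higher and 90.2% lower. Of 27 genes of blood and liver, none held a shared pair and 4 held an SHP1705-only peak, where 60.6% of protein-coding genes held one. Genes were counted in these lists with earlier results known, and a gene with long or abundant transcripts has more room for a peak, which was not adjusted for.

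The SHP1705-only peaks lay mostly inside genes, and most were low. Of the 31138, 87.7% (interval 87.3 to 88.0) lay inside genes and 77.7% inside protein-coding genes, with a median of 1.55 FPM. Their summits lay in 12092 of 19970 protein-coding genes, or 60.6%. DST, a giant linker of the cytoskeleton, held 16, RNF213, a ubiquitin ligase, 13, and DYNC1H1, the dynein heavy chain, and MACF1, another cytoskeletal linker, 12 each. Within 1 kb of the 3′ end lay 18.0% of those in protein-coding genes (17.4 to 18.5), against 44.4% of the higher shared pairs (41.5 to 47.4), and within 1 kb of the 5′ end 8.92%, against 4.27%. Their median summit was at 75% of the gene's length. A combination peak overlapped 5.73% of them and an MG132 peak 7.48%. A height of 13.0 FPM is what the lowest DMSO peak would correspond to at 29.7, the median ratio of the higher pairs inside genes. Of the SHP1705-only peaks, 94.1% stood below that height. The other 1845, of which 1831 lay inside genes, stood above it and were still without a DMSO peak.

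The tallest SHP1705-only peak, at 287 FPM, covered MTATP6P1, a nuclear copy of the mitochondrial ATP6 gene, within LOC102724250 at chr1:633731-634196. HSPA5, the chaperone BiP of the endoplasmic reticulum, reached 193 FPM, and neither companion library held a peak there. POTEF, an actin-related fusion gene, reached 176 FPM in SHP1705, 4.24 in the combination and 4.65 in MG132. UBA52P6, a copy of a ubiquitin fusion gene inside CDKN2B-AS1, reached 160 FPM in SHP1705 and 6.05 in MG132. It lies at chr9:22012131-22012623, beside the genes of the segment known to be lost in the line. EEF2, the elongation factor that moves the ribosome, reached 159 FPM, and a second region of COL6A3 reached 141. HSPA5, EEF2 and COL6A3 also held shared pairs elsewhere in the gene, all higher in SHP1705. Outside genes the tallest lay near TNPO3 (47.1 FPM), ZNF33B (45.0), POTEG (40.7) and PHF21A (29.4). The peak near ZNF33B stood at 265 FPM in the combination and 224 in MG132, so there SHP1705 was the lowest of the 3 libraries that held it.

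The DMSO-only peaks that met the rule were fewer, and a smaller share lay inside genes. Another 36334 DMSO and 46057 SHP1705 peaks overlapped nothing in the other list but were too narrow or too centred. The count and place of DMSO-only peaks therefore depend on the rule. Of the 2826, 27.6% (26.0 to 29.3) were inside genes, against 49.4% of the whole DMSO list. Inside protein-coding genes lay 20.9% of the 2826, and their median height was 6.36 FPM over all 2826. Within protein-coding genes 1.03% lay within 1 kb of the 3′ end, and the median summit was at 46.9% of the gene's length. A combination peak overlapped 26.3% and an MG132 peak 27.5%, with 32.3% and 33.8% outside genes, and 10.6% and 10.8% inside. The lowest SHP1705 peak would correspond to 2.34 FPM in DMSO at the median ratio outside genes, and 15.1% of the DMSO-only peaks stood below that. The tallest inside genes lay in LOC128966623 at 200 FPM, the pseudogene S100A11P3 at 90.4, LOC124904103 at 88.1, MUC17, a membrane mucin, at 78.4, NLRP3, the inflammasome sensor, at 66.7, and OPCML, a neural adhesion molecule, at 61.0. Of these 6, S100A11P3 and OPCML also held companion peaks, with 3.35 FPM in the combination and 35.1 in MG132 at OPCML. Outside genes the tallest lay near WDR97 (81.3), LOC124904970 (81.1), LOC124905938 (80.5) and KCNJ18 (79.8).

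**Figure D5:**
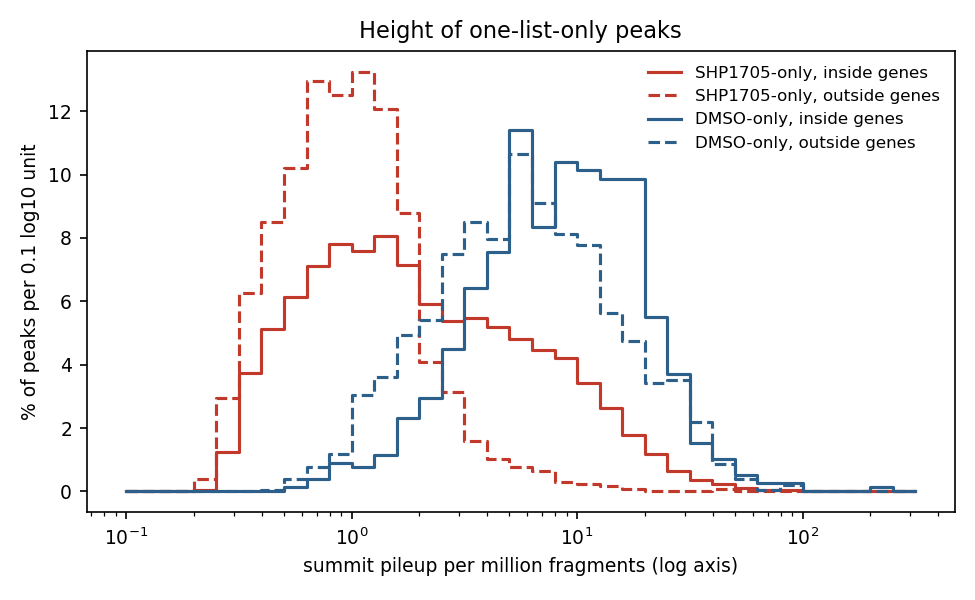
Distribution of summit pileup in FPM (log axis, bins of 0.1 in log10) for SHP1705-only and DMSO-only peaks inside (solid) and outside RefSeq genes (dashed), as percent of each class. Medians were 1.73 and 0.930 FPM for SHP1705-only and 8.29 and 5.86 for DMSO-only peaks, inside and outside genes in that order.

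Values on both sides of the rules' limits were as follows. Pairs with summits over 200 and up to 250 bp apart had a median log2 ratio of -1.74 inside genes (148 pairs) and -3.24 outside (250 pairs), and those over 250 and up to 300 bp apart, just beyond the rule, had -2.16 (138 pairs) and -3.36 (194 pairs). Peaks 1.5 to 1.6 times the fragment size in SHP1705 had a median of 0.921 FPM with 74.4% inside genes, and those 1.4 to 1.5 times, just short of the rule, 0.752 FPM with 74.1%. In DMSO the wider band held 270 peaks with a median of 5.89 FPM, 27.8% inside genes, and the narrower band 1677 peaks with a median of 10.2 FPM, 44.7% inside genes.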

How the data were processed

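STARR-seq was analysed from the authors' deposited MACS peak lists, 1 library for each of 4 treatments. The build was hg38 and the tools were Bowtie2, MACS2, FastQC and Trimmomatic, per the submitters' processing notes. Per the file headers, MACS 2.2.6 called peaks per library at a q limit of 0.01, from paired fragments, with duplicates kept, no control and a 10000 bp background. Summit pileup is the deposited signal, a coverage not scaled for depth. Fold over the local background, −log10 p-value and −log10 q-value are the deposited ratio and scores of the authors' caller, the first and last used only to describe or filter peaks within a list.

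Pileup was divided by the fragments in each header (27289266 to 118324303) and compared per 1000000 fragments (FPM) as log2 ratios (Python 3.11.15, pandas 2.3.3, scipy 1.17.1). Genes came from RefSeq GRCh38.p14, whose primary chromosomes have hg38 coordinates, and a pair took the gene class of its DMSO summit. MG132 and combination heights at a pair are those of the tallest peak overlapping the DMSO peak, without matching summits. Pairing was run on simulated lists, copies of DMSO peaks with summits moved by less than the 250 bp limit. These lists held no unrelated peaks, so the run could not measure pairs formed by chance. With 1 library a treatment no test was run, and Wilson 95% intervals cover counting error only. Members, gene lists and motifs were chosen with earlier results of these data known. Named peaks were the 8 highest and 8 lowest ratios inside genes and 5 and 5 outside, with DMSO pileup of at least 50, and the tallest 6 inside and 4 outside in each one-list set, 1 per gene. List members named had a shared pair of at least 50 DMSO fragments or belonged to the clock lists, and promoters shown were chosen after their values were seen, as were the smaller counts named besides. Some members of the lists are not reported here.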

Additional observations from a re-analysis of the deposited data

Results flagged for a closer look

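Ratios that differ by SHP1705 were set side by side without and with MG132. At 1155 peaks inside genes that were at least 2-fold higher in SHP1705 and present in all 4 lists, the median log2 ratio of SHP1705 over DMSO was 4.93. At the same peaks the median log2 ratio of the combination over MG132, which also differ by SHP1705, was -0.27. Of the 1155, 939 were below 0 in the combination over MG132, 38 were at least 2-fold above and 91.3% were within 2-fold, and the central 90% lay between -1.10 and 0.52. The peaks were chosen on the first of these ratios, which fixes its sign, each treatment had 1 library, and the difference was not tested.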

How the results depend on the processing

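No median log2 ratio changed sign, but 2 settings left little or no direction. The median inside genes fell to 0.070 with at least 50 DMSO fragments, and that outside genes to 0 where set equal. The median log2 ratio inside genes, 4.52, was 4.69 with summits within 100 bp, 4.24 within 500 bp, 4.73 scaled by fragments times fragment size, 0.070 with at least 50 DMSO fragments, 4.19 without pseudogenes, 4.70 with the SHP1705 list cut to the DMSO length, and 7.82 with the median pair outside genes set equal, a setting added after the data were seen. It mixes a high and a low group, whose shares also moved. Against 65.1% in the main setting, 74.0% of pairs were higher at 100 bp and 58.3% at 500 bp. The share was 46.7% with at least 50 DMSO fragments, 57.4% without pseudogenes and 75.6% at equal list length. The median outside genes, -3.31, was -3.10 scaled by fragment size, -3.19 with protein-coding genes alone, -3.16 at equal list length, and 0 by construction where set equal. SHP1705-only peaks, 31138, numbered 19255 at 2 times the fragment size and 3982 above the median of the DMSO list. DMSO-only peaks, 2826, numbered 1659 at 2 times the fragment size. The share of SHP1705-only peaks inside genes, 87.7%, was 86.6% without pseudogenes, 77.7% for protein-coding genes, 89.4% at equal list length, 93.6% at 2 times the fragment size, 88.9% without a DMSO peak within 1 kb, and 99.1% above the DMSO median. That of DMSO-only peaks, 27.6%, was 20.9%, 23.9% and 30.1% for protein-coding genes, equal list length and 1 kb. The causes were not tested. No paired analysis was possible because each treatment had 1 library. The lowest peak was 0.237 FPM (fragments over the summit per 1000000 in the library) in the deeper SHP1705 library and 0.437 FPM in DMSO, and the part of depth was not tested.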

Other observations

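Stromal and epithelial genes were looked at in 2 lists drawn up after the values were seen, so their values are descriptions. KRT7, KRT8, KRT18 and KRT19 of the epithelial list are also in the cytoskeletal list. Of 12 fibroblast and stromal genes, 9 held a higher pair, against 6.52% of protein-coding genes. Their 18 pairs, 8 of them in COL6A3 alone, were all higher in SHP1705, with a median log2 ratio of 6.24 and 17 of the 18 above the upper quartile of all higher pairs inside genes. COL1A1, the main fibrillar collagen, had 183 FPM in SHP1705, 3.21 in the combination, 7.0 in MG132 and 3.26 in DMSO. LUM, a proteoglycan of the stroma, had 126 FPM in SHP1705, 1.31 in the combination, 1.69 in MG132 and 1.85 in DMSO. DCN, decorin, had 131 FPM in SHP1705, 1.98 in the combination, 2.78 in MG132 and 2.49 in DMSO.

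Of 18 epithelial genes, 10 held a higher pair and 1, KRT17, a lower one, against 6.52% and 2.92% of protein-coding genes. Their 12 higher pairs had a median log2 ratio of 4.30, and 10 of the 12 lay below the lower quartile of all higher pairs inside genes. KRT18, a keratin of simple epithelia, had 82.1 FPM in SHP1705, 3.95 in the combination, 4.58 in MG132 and 5.25 in DMSO, a log2 ratio of 3.97. CDH1 had 41.7 FPM in SHP1705, 2.58 in the combination, 2.31 in MG132 and 2.05 in DMSO, a log2 ratio of 4.34. Of the 12 stromal genes 3, and of the 18 epithelial genes 7, had no shared pair. Where the RNA at these peaks came from was not tested.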
